A study of Mus musculus with 4 samples.

Results

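This account follows 7 genes that handle iron and haem in the leukocytes of the injured muscularis, namely Hmox1, Slc40a1, Fth1, Ftl1, Trf, Tfrc and Slc11a1. They were chosen by name for what they do, and are 7 of the 16308 genes measured. The study sequenced the RNA of single CD45+ cells from the muscularis, the muscle wall of the gut, after it had been inflamed by intestinal manipulation, a surgical handling of the small intestine. Muscle layers came from C57BL/6J mice (WT) and from Ccr2-/- mice of the strain B6.129S4-Ccr2tm1Ifc/J (here CCR2 KO), all 12 weeks old and all operated, at 24 h or at 72 h post-injury. CCR2 is the receptor through which monocytes are drawn from blood into inflamed tissue, and the KO mice carry the targeted allele in every cell, not in monocytes alone. Each of the 4 groups is 1 library pooled from several mice, so there is no replicate check, no p-value is given, and intervals are 95% intervals that cover counting error only.

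The genes cover the path of iron through a phagocyte. Haem, for the most part taken in with dying red cells, is opened by haem oxygenase 1 (Hmox1), which frees its iron. That iron is stored in ferritin, a shell built of heavy chains (Fth1) and light chains (Ftl1), or leaves the cell through ferroportin (Slc40a1), the only known iron exporter of mammalian cells. Transferrin (Trf) carries iron outside cells, the transferrin receptor (Tfrc) takes it in, and Slc11a1, also called Nramp1, moves iron out of the phagosome of macrophages (Mφs) and neutrophils. When a cell is short of iron, iron regulatory proteins bind a short RNA hairpin, the iron-responsive element, which blocks translation where the hairpin lies in the 5′ UTR and protects the message where it lies in the 3′ UTR. UMI counts measure the messages and not what translation makes of them.

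The hairpins are shown because they divide the genes into those whose message the iron regulatory proteins can reach and those without such an element in these windows. A search of the GENCODE M21 transcripts (GRCm38) for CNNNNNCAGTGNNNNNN on the transcript strand, with the 5 stem bases on either side of the loop paired (G with U allowed), matched the 5′ UTRs of Fth1, Ftl1 and Slc40a1 and the 3′ UTR of Tfrc. Each is printed 5′ to 3′ as DNA, with the unpaired C and the CAGTG of the loop in capitals.
Fth1, 5′ UTR, chr19:9982732-9982760, plus strand: ttcctgCttcaaCAGTGcttgaacggaac
Ftl1, 5′ UTR, chr7:45459779-45459807, minus strand: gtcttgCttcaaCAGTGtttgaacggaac
Slc40a1, 5′ UTR, chr1:45925465-45925493, minus strand: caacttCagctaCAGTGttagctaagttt
Tfrc, 3′ UTR, chr16:32631219-32631247, plus strand: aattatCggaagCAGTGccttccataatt
Tfrc, 3′ UTR, chr16:32631598-32631626, plus strand: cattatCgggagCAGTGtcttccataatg
Tfrc, 3′ UTR, chr16:32631663-32631691, plus strand: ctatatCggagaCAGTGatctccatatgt
Tfrc, 3′ UTR, chr16:32631710-32631738, plus strand: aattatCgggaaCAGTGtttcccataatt
Of all genes with a 5′ UTR long enough, 31 of 20580 (0.151%) held such a match, and 129 of 20978 (0.615%) held one in the 3′ UTR. No match lay in the UTRs of Hmox1, Trf or Slc11a1. The promoter windows of Fth1, Ftl1, Tfrc and Slc11a1 (RefSeq, GRCm38.p6, 300 bases) held no TGACNNNGC on either strand. That is the core of the element that NRF2 and BACH1 bind, and 12.4% of 32851 windows held it. At that share, no match in so few windows does not set these genes apart, and sequence outside the windows was not searched. The windows of Hmox1, Slc40a1 and Trf were not analysed here.

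In GRCm38 coordinates, Hmox1 lies at chr8:75093621-75100589 on the plus strand, Slc40a1 at chr1:45908068-45926523 on the minus strand and Slc11a1 at chr1:74375195-74386062 on the plus strand. Fth1 lies at chr19:9980598-9985098 (plus), Ftl1 at chr7:45457944-45459884 (minus), Trf at chr9:103204001-103230444 (minus) and Tfrc at chr16:32608920-32632794 (plus). Ftl1 has near-identical copies in the genome. The copy Ftl1-ps1 stood at 49.9 to 93.6 CPM and Gm6377 at 48.5 to 102.4 CPM in monocyte/Mφ-like cells, so that reads of Ftl1 may have been split or lost in the authors' counting and its level is uncertain.

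At 24 h the libraries held 1674 cells of WT and 1774 of CCR2 KO, and at 72 h 1315 and 1048, from 9736725 to 21206308 UMIs in all and a median of 3281.5 to 12859 UMIs per cell. Of 5811 cells, 12 with non-immune markers were left out, and 4 barcode sequences occurred in more than 1 library, in 8 cells. Cells were put into classes by clustering without the iron and haem genes and without Ccr2, and classes were named from marker genes ("-like" says no more than that). Levels are in CPM, in which a gene's UMIs within a class and library are scaled to the total of that class. They come from tags at the 3′ end and carry no length correction, so a ratio between genes compares UMIs. There were 1286, 218, 881 and 149 monocyte/Mφ-like cells in WT at 24 h, CCR2 KO at 24 h, then WT and CCR2 KO at 72 h, the order kept throughout, or 76.8%, 12.3%, 67.0% and 14.3% of each library. Neutrophil-like cells numbered 301, 1292, 88 and 221. Ptprc, which encodes CD45, was at 352 to 499 CPM in monocyte/Mφ-like cells. The targeted gene Ccr2 stood at 759 and 1063 CPM in monocyte/Mφ-like cells of WT at 24 h and 72 h, and at 95.2 and 83.2 CPM in those of CCR2 KO. It was thus lower where the labels say KO, although its UMIs did not reach 0. The make-up of the class also differed, and its part in the Ccr2 level was not tested.

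The monocyte/Mφ-like class was filled by clusters in differing shares in the 4 libraries, which bears on every comparison of that class. A cluster led by Chil3 and Vcan, genes of young monocytes, held 48.8% of it in WT 24 h and 24.3% in CCR2 KO 24 h. One led by Lilra5 and Mmp13 held 1.71% and 23.9% in the same libraries, while one led by Ppbp and Pf4 was alike, at 41.1% and 44.95%. At 72 h, 50.2% of the class in WT came from a cluster led by Apoe and Ms4a7 and 57.0% of that in CCR2 KO from one led by Lilra5 and Mmp13. A level of the class therefore mixes what cells express with which cells are there, and the sub-clusters are given below for that reason. Median depth in the class was alike, at 14580.5, 15803, 13981 and 12695 UMIs per cell.

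**Figure D1:**
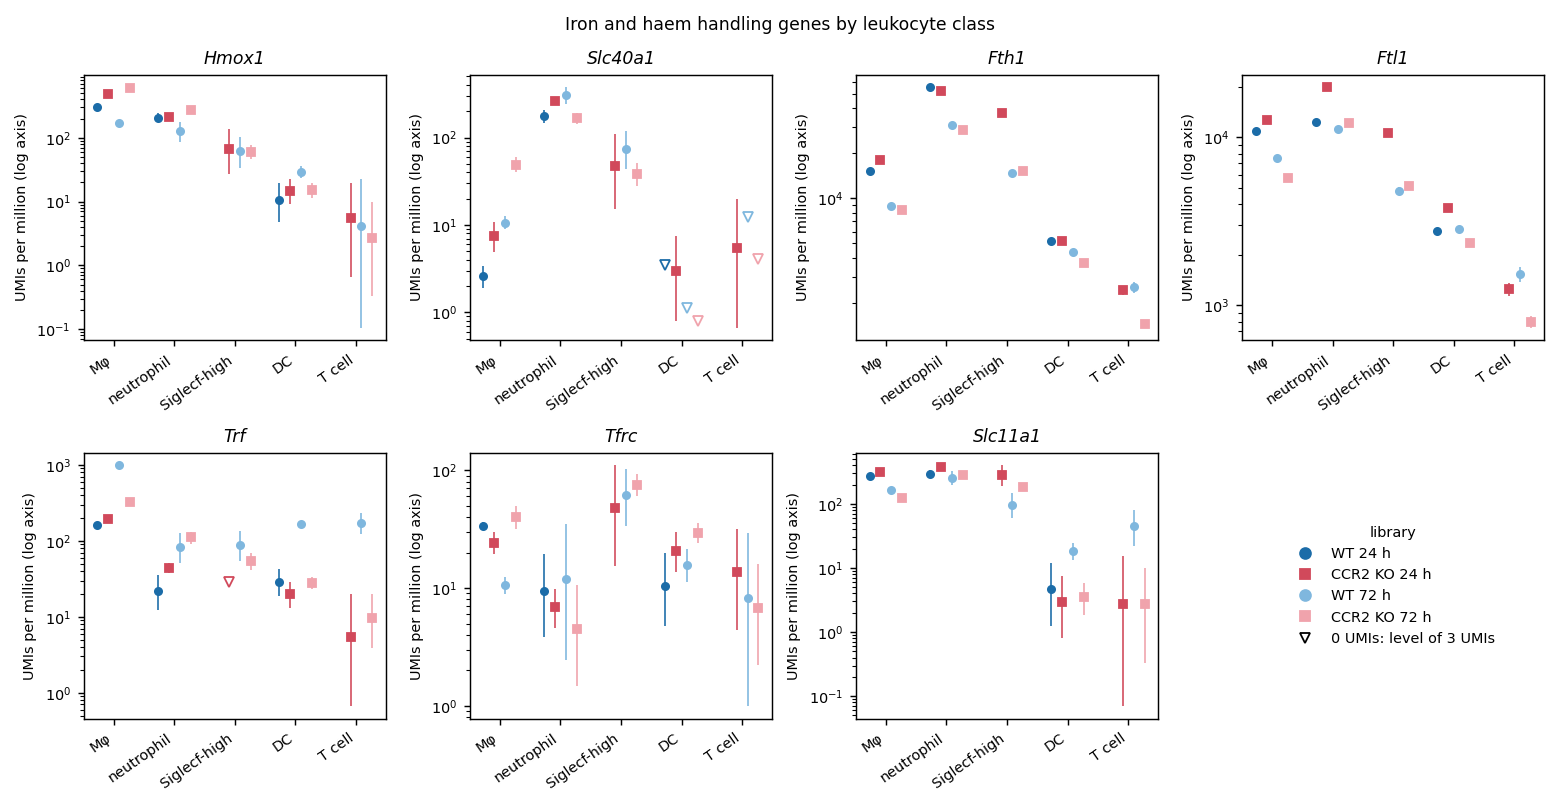
Level of each of the 7 genes (CPM, log axis) in each leukocyte class with at least 20 cells, with 1 point per library and bars for the 95% interval of the counting error; CCR2 KO stands for the Ccr2-/- mice. The ferritin chains stand highest in neutrophil-like cells, with Fth1 between 28786 and 55260 CPM there, Trf is highest in monocyte/Mφ-like cells of WT 72 h at 982 CPM, and Slc40a1 is higher in neutrophil-like than in monocyte/Mφ-like cells in every library.

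The UMIs of Hmox1 lay for the most part in monocyte/Mφ-like cells. Neutrophil-like cells stood at 206, 211, 127 and 277 CPM of Hmox1, lower than monocyte/Mφ-like cells in each library. Monocyte/Mφ-like cells held 97.3%, 66.3%, 93.4% and 74.4% of the Hmox1 UMIs of the 4 libraries, and the level in the class was 301 CPM (294 to 309), 485 CPM (463 to 508), 171 CPM (164 to 179) and 602 CPM (570 to 636). CCR2 KO stood above WT at both times, and the intervals of the 4 libraries did not overlap. At 72 h the difference was 3.51-fold (log2 1.81, interval 1.71 to 1.91), at 24 h 1.61-fold (log2 0.69, 0.61 to 0.76), and over time Hmox1 differed by -0.81 in WT and by 0.31 in CCR2 KO on the log2 scale.

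In CCR2 KO, at 72 h above all, this level did not describe the typical cell. The median CPM of a single cell was 184, 165, 95.7 and 121, lower in CCR2 KO than in WT at 24 h and only slightly higher at 72 h. In CCR2 KO 72 h the cell with the most Hmox1 held 368 of the 1267 UMIs (29.0%), and the next held 276 and 195. In that library 2 cells were enough for 50% of the UMIs, against 155 in WT 24 h, 13 in CCR2 KO 24 h and 88 in WT 72 h.

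Every library held such cells. At a limit of 4000 CPM of Hmox1, drawn after the values had been seen, there were 6, 2, 5 and 6 of them, and they held 9.25%, 27.0%, 18.8% and 73.3% of the Hmox1 UMIs of the class. Between 2000 and 4000 CPM there were 8, 6, 0 and 1 more. In them Hmox1 reached 7577, 10440, 8697 and 10061 CPM.
Without them the class stood at 274, 359, 140 and 168 CPM, and the difference between CCR2 KO and WT fell to a log2 ratio of 0.39 at 24 h and 0.27 at 72 h. Over time Hmox1 was then lower in both genotypes, by -0.97 in WT and -1.09 in CCR2 KO. In CCR2 KO 72 h, 5 of the 6 cells had over 5% mitochondrial UMIs, against 1 of 6, 0 of 2 and 2 of 5 in the others. They lay in the Cx3cr1 (3), dividing (2) and Fabp5 (1) sub-clusters in CCR2 KO 72 h and in the Timp2 (3) and Cd206 (2) sub-clusters in WT 72 h.
The other genes behaved differently in these cells. In CCR2 KO 72 h, 4 of the 6 cells had Slc40a1 UMIs and held 51.5% of those of the class, and in WT 72 h a single cell that was highest for Hmox1 was also highest for Slc40a1, with 57 of 134 UMIs. In WT 24 h none of the 6 had a Slc40a1 UMI. Fth1 was at 52420 CPM against 17600 in the rest of the class in CCR2 KO 24 h, 20907 against 8810 in WT 72 h and 22700 against 7661 in CCR2 KO 72 h, but at 13109 against 15135 in WT 24 h. Trf showed no such excess, with 357 CPM against 328 in CCR2 KO 72 h and 685 against 983 in WT 72 h.

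Ferroportin (Slc40a1) was sparse in monocyte/Mφ-like cells, which gave 27.8%, 2.42%, 58.5% and 31.0% of its UMIs in the libraries. Its level there was 2.58 CPM (1.91 to 3.40), 7.43 CPM (4.90 to 10.8), 10.6 CPM (8.92 to 12.6) and 49.0 CPM (40.0 to 59.4), from 50, 27, 134 and 103 UMIs in 17, 12, 39 and 24 cells. It was lowest in WT 24 h and highest in CCR2 KO 72 h, where the interval stood clear of all others. The difference was 4.60-fold between CCR2 KO and WT at 72 h (log2 2.20, 1.82 to 2.58) and 6.59-fold over time in CCR2 KO (log2 2.72, 2.10 to 3.39).
A single cell held 56.0%, 29.6%, 42.5% and 24.3% of these UMIs. Without the 2 highest cells the level was 0.929, 3.90, 5.27 and 29.9 CPM, in the same order of libraries. The 17 cells of WT 24 h with a Slc40a1 UMI carried 12287 CPM of 12 summed neutrophil markers against 1069 CPM in the cells without one. In the other libraries the pairs were 726 and 671, 1461 and 466, and 625 and 694 CPM, so that an excess of neutrophil markers went with Slc40a1 in WT and hardly in CCR2 KO; its part in the level was not tested.

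Neutrophil-like cells held more Slc40a1 than monocyte/Mφ-like cells in each library, at 176 CPM (147 to 209), 263 CPM (248 to 279), 306 CPM (242 to 383) and 167 CPM (144 to 193). They gave 72.2%, 96.6%, 33.6% and 55.7% of all Slc40a1 UMIs. The level was higher in CCR2 KO at 24 h (log2 0.58, 0.31 to 0.85) and lower at 72 h (-0.88, -1.27 to -0.47), and neither difference reached 2-fold.
With every cell cut at random to 1000 UMIs and shallower cells left out, a Slc40a1 UMI was found in 14.9% of neutrophil-like cells of WT 24 h and 19.3% of CCR2 KO 24 h, and in 0.157%, 0.469%, 0.575% and 6.87% of monocyte/Mφ-like cells. Lymphocyte-like cells (T, NK and innate lymphoid), which served as the background from free RNA, had none among 20, 92, 59 and 129 cells, which allows shares of up to 15%, 3.26%, 5.08% and 2.33% (3 cells of the total) or, as the upper end of the exact binomial interval, 16.8%, 3.93%, 6.06% and 2.82%. Their median depth was 4817 to 7330 UMIs. After the same thinning Slc11a1 was also absent from them, and Hmox1 was found in 1 of the 20 cells of WT 24 h and in none of the others. At full depth the background was not empty. T cell-like cells held 0, 2, 0 and 0 Slc40a1 UMIs in the 4 libraries. They held 0, 1, 11 and 2 UMIs of Slc11a1 and 1, 2, 1 and 2 of Hmox1.

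The ferritin chains were the most abundant of the 7 genes in each class. In monocyte/Mφ-like cells Fth1 stood at 15127, 18037, 8855 and 8321 CPM and Ftl1 at 10855, 12690, 7556 and 5736 CPM, and together they made up 2.60%, 3.07%, 1.64% and 1.41% of all UMIs of the class. Both were lower at 72 h than at 24 h in either genotype. In CCR2 KO the fall passed 2-fold, with log2 ratios of -1.12 (-1.14 to -1.09) for Fth1 and -1.15 (-1.17 to -1.12) for Ftl1, while in WT it was -0.77 for Fth1 and -0.52 for Ftl1. Between the genotypes the ferritin chains differed by at most 0.25 at 24 h and by -0.40 at 72 h.

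As a share of UMIs, the heavy chain was higher still in neutrophil-like cells. These cells were shallower, with a median of 2067, 2974.5, 2815.5 and 4713 UMIs against 12695 to 15803 in monocyte/Mφ-like cells. Messages per cell were not compared. Fth1 was at 55260, 52339, 30672 and 28786 CPM and Ftl1 at 12424, 19924, 11181 and 12151 CPM, together 6.77%, 7.23%, 4.19% and 4.09% of all their UMIs. Fth1 was lower at 72 h by a log2 ratio of -0.85 in WT and -0.86 in CCR2 KO, whereas Ftl1 was lower by -0.15 in WT and by -0.71 in CCR2 KO. There were 4.45, 2.63, 2.74 and 2.37 Fth1 UMIs per Ftl1 UMI in neutrophil-like cells against 1.39, 1.42, 1.17 and 1.45 in monocyte/Mφ-like cells.
The neutrophil clusters differed among themselves by more than the libraries did. In CCR2 KO 24 h the cluster led by Rab15 and Mreg had Fth1 at 79207 and Ftl1 at 47116 CPM, and the cluster led by Retnlg and Ly6g, genes of young neutrophils, had them at 27624 and 5538 CPM. Slc40a1 was 587 CPM in the former and 158 CPM in the latter, and Hmox1 was 468 and 69.4 CPM. All 4 genes were thus higher in the Rab15 and Mreg cluster than in the Retnlg and Ly6g cluster. The former held 154 of the 1292 neutrophil-like cells of that library and 6, 2 and 12 cells in the others.

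Transferrin (Trf) was the gene that differed most with time in WT monocyte/Mφ-like cells. It stood at 164 CPM (158 to 170), 197 CPM (183 to 212), 982 CPM (965 to 999.6) and 329 CPM (305 to 355). The WT 72 h level lay far above the other libraries, 6.00-fold over WT 24 h (log2 2.58, 2.53 to 2.64) and 2.98-fold over CCR2 KO 72 h (the log2 ratio of CCR2 KO to WT was -1.58, -1.69 to -1.47). The CCR2 KO library of 72 h was 1.67-fold over that of 24 h.
Unlike Hmox1, this was spread over the cells. A Trf UMI was found in 92.5% of the cells of WT 72 h and in 56.1%, 60.6% and 56.4% of those in the others, and after thinning to 1000 UMIs in 54.3% against 12.7%, 17.8% and 22.1%. The median cell of WT 72 h was at 820 CPM and that of the others at 59.5, 69.6 and 76.6 CPM. In the lymphocyte-like cells the thinned share was 0 to 4.65%.
Trf was seen at 72 h in other WT classes too. Dendritic cell-like cells had 29.0, 19.9, 166 and 28.0 CPM, which made Trf 2.52 higher over time in WT and -2.57 (-2.89 to -2.26) in CCR2 KO against WT at 72 h on the log2 scale. Neutrophil-like cells had 21.7, 43.5, 83.6 and 111 CPM, with 16, 178, 21 and 123 UMIs. T cell-like cells of WT 72 h had 171 CPM from 42 UMIs, against 9.54 CPM in those of CCR2 KO 72 h. The cluster led by Iglc1 and Igkc had 602 CPM in WT 72 h, from 190 UMIs. Dendritic cell-like and T cell-like cells thus followed the monocyte/Mφ-like cells at 72 h, whereas in neutrophil-like cells CCR2 KO 72 h was no lower than WT 72 h. Whether free RNA from the monocyte/Mφ-like cells had a part in these levels was not tested.

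The transferrin receptor (Tfrc) was low in every library and, over time in WT and between the genotypes at 72 h, moved the other way to Trf in monocyte/Mφ-like cells. It stood at 33.7 CPM (31.1 to 36.3), 24.2 CPM (19.4 to 29.8), 10.6 CPM (8.85 to 12.5) and 39.9 CPM (31.8 to 49.4), from 653, 88, 133 and 84 UMIs. WT 72 h was the lowest of the 4. Tfrc was 3.18-fold lower over time in WT (log2 -1.67, -1.95 to -1.40) and 3.78-fold higher in CCR2 KO than in WT at 72 h (log2 1.92, 1.51 to 2.32).
Dividing cells need transferrin iron, and the dividing sub-cluster held 45 of the 149 cells of CCR2 KO 72 h and 19 of the 881 of WT 72 h. In the Cx3cr1 sub-cluster Tfrc was at 27.2 CPM in CCR2 KO 72 h and 6.55 CPM in WT 72 h, from 14 and 3 UMIs (log2 2.05, 0.21 to 4.49). Tfrc was at 55.7 CPM in the dividing sub-cluster of CCR2 KO 72 h and at 69.1 CPM, from 6 UMIs, in the peritoneal one. Without the dividing and peritoneal sub-clusters, left out together after the data had been seen, the log2 ratio at 72 h was 1.32. The part of either sub-cluster in the Tfrc difference was not tested. The dividing sub-cluster was also led by Igkc, Igha and Jchain. Over the class 5 plasma cell markers summed to 1066 CPM in CCR2 KO 72 h against 2.53 to 35.3 CPM elsewhere. That marks a difference between the libraries whose part in the levels was not tested.

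Slc11a1, the phagosomal transporter, was at 272, 312, 165 and 124 CPM in monocyte/Mφ-like cells, and at 294, 376, 259 and 282 CPM in neutrophil-like cells. In monocyte/Mφ-like cells it was lower at 72 h in either genotype, by a log2 ratio of -0.72 in WT and of -1.33 (-1.53 to -1.14) in CCR2 KO, where it passed 2-fold. The 2 genotypes differed by 0.20 at 24 h and -0.41 at 72 h. Dendritic cell-like cells held only 2.95 to 18.3 CPM.

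**Figure D2:**
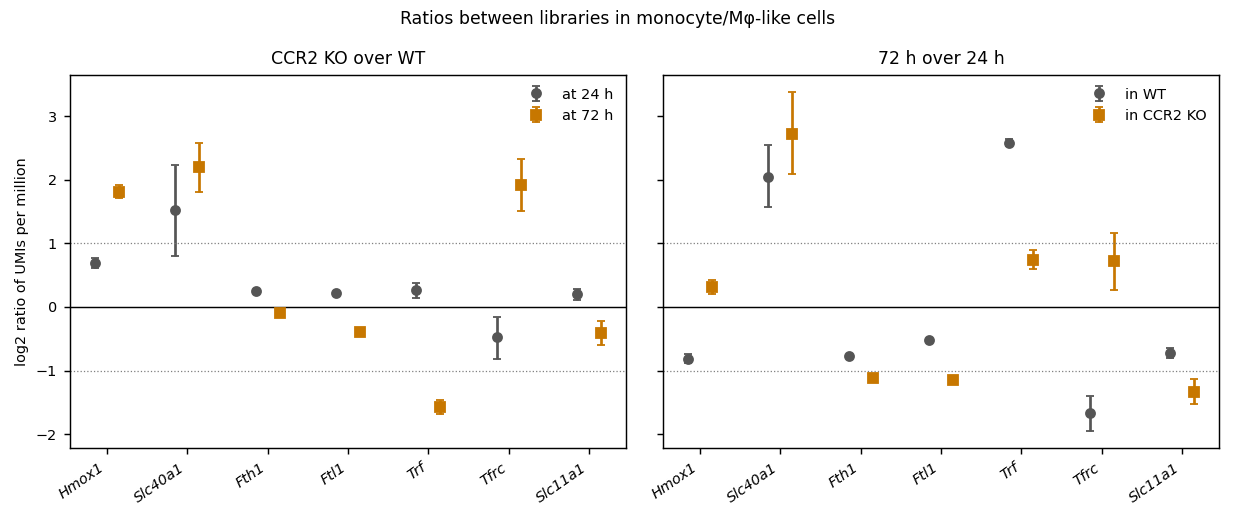
Log2 ratio of the CPM of each gene in monocyte/Mφ-like cells for the 4 comparisons between libraries, with the 95% interval of the counting error as bars and dashed lines at 2-fold. At 72 h Slc40a1 (2.20), Tfrc (1.92) and Hmox1 (1.81) lie above the upper line and Trf (-1.58) below the lower one, while at 24 h only Slc40a1, from 27 and 50 UMIs and under 20 CPM, lies past a line.

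The count of genes past 2-fold between the genotypes was 4 of 7 at 72 h and 0 of 6 at 24 h. A gene counted as past 2-fold only with at least 20 CPM in 1 of the 2 libraries and 30 UMIs over both. Slc40a1 missed this between the genotypes at 24 h (log2 1.53) and over time in WT (2.05), being under 20 CPM in both libraries. At 72 h Slc40a1 and Tfrc reached 20 CPM only in CCR2 KO, where they were higher, so the counts depend in part on this filter. At 24 h none of the 6 genes that met this was past 2-fold between CCR2 KO and WT, where 2.79% of 5869 genes were higher and 1.36% lower. At 72 h 3 of 7 were higher (Hmox1, Slc40a1 and Tfrc) and 1 lower (Trf), where 5.71% of 6411 genes were higher and 2.64% lower. Of the 3 higher, Tfrc alone was left in cells with at most 5% mitochondrial UMIs, and Hmox1 was at 0.27 without the cells of at least 4000 CPM.
Over time in WT, 1 of 6 was higher (Trf) and 1 lower (Tfrc), against 6.92% and 6.55% of 6199 genes. Tfrc reached 20 CPM in WT only at 24 h, so it could be counted only as lower. Over time in CCR2 KO, 1 of 7 was higher (Slc40a1) and 3 lower (Fth1, Ftl1 and Slc11a1), against 10.5% and 4.90% of 6435 genes. Slc40a1 reached 20 CPM in CCR2 KO only at 72 h, so it could be counted only as higher. The median log2 ratio of the genes was 0.24, -0.09, -0.75 and 0.31 in the 4 comparisons in that order, against -0.07, 0.13, -0.05 and 0.14 over all genes. The comparisons share libraries, so their counts are not independent.

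Few of the 7 genes passed 2-fold in the other classes. In neutrophil-like cells 1 of 6 was higher in each comparison and none lower. These were Trf between the genotypes at 24 h (log2 1.004, 0.26 to 1.84, background 6.57%), Hmox1 between the genotypes at 72 h (1.12, 0.59 to 1.69, 4.39%), and Trf over time in WT (1.95, 6.59%) and in CCR2 KO (1.35, 4.11%). The make-up of the class differed too, since the cluster led by Retnlg and Ly6g, which had 121 CPM of Trf in CCR2 KO 24 h and 150 CPM in CCR2 KO 72 h, was 15.0%, 7.51%, 21.6% and 37.1% of it. In the 3 clusters with 20 cells of both libraries, Trf did not pass 2-fold upward over time in CCR2 KO, with log2 ratios of 0.31 (-0.20 to 0.82) in that cluster, -0.05 (-1.13 to 0.90) in the one led by Cxcr2 and H2-Q10 and -1.09 (-2.35 to 0.07) in the one led by Asprv1 and Chil1. Between the genotypes at 24 h, Trf was higher in CCR2 KO within the Retnlg and Ly6g cluster, at 121 against 31.0 CPM (1.97, 0.76 to 3.47), from 56 and 6 UMIs. In the Cxcr2 and H2-Q10 cluster it differed by 0.56 (-0.52 to 1.84). The clusters led by Asprv1 and Chil1 and by Gm13822 and Ifit3b held only 1 Trf UMI each in WT 24 h. In the Cxcr2 and H2-Q10 cluster, the only one with 20 cells of both libraries of 72 h, Hmox1 differed by 0.32 (-0.779 to 1.4996) between the genotypes. Lower genes made up 2.34%, 3.12%, 7.03% and 7.87% of all genes there. The Hmox1 difference again rested on single cells, since 1 cell held 29.97% of the 307 UMIs in CCR2 KO 72 h and the log2 ratio was 0.50 without cells of at least 4000 CPM.
In dendritic cell-like cells none of 4 passed between the genotypes at 24 h (3.93% of all genes higher, 2.54% lower), and 1 of 5, Trf, was lower at 72 h (1.44% and 2.97%). Over time in WT, Trf and Hmox1 (10.4 and 29.2 CPM, log2 1.49) were higher, 2 of 4 (6.03% and 2.48%), and in CCR2 KO none of 4 passed (4.03% and 3.11%). Hmox1 had 9 UMIs in WT 24 h and reached 20 CPM only in WT 72 h, so it could be counted only as higher. In T cell-like cells 1 of 3, again Trf, was lower in CCR2 KO at 72 h (4.17% and 2.82%), and none of 2 passed over time in CCR2 KO (3.72% and 2.84%). Trf reached 20 CPM there only in WT 72 h, so it could be counted only as lower. In the cluster marked by high Siglecf, none of 7 passed between the genotypes at 72 h (6.35% and 1.81%), while 2 of 7, Fth1 and Ftl1, were lower over time in CCR2 KO (7.97% and 3.35%). Those cells, with a low median depth of 2206 to 3008 UMIs per cell in these 3 libraries, had Fth1 at 37144 CPM in CCR2 KO 24 h, 14819 in WT 72 h and 15241 in CCR2 KO 72 h.

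**Figure D3:**
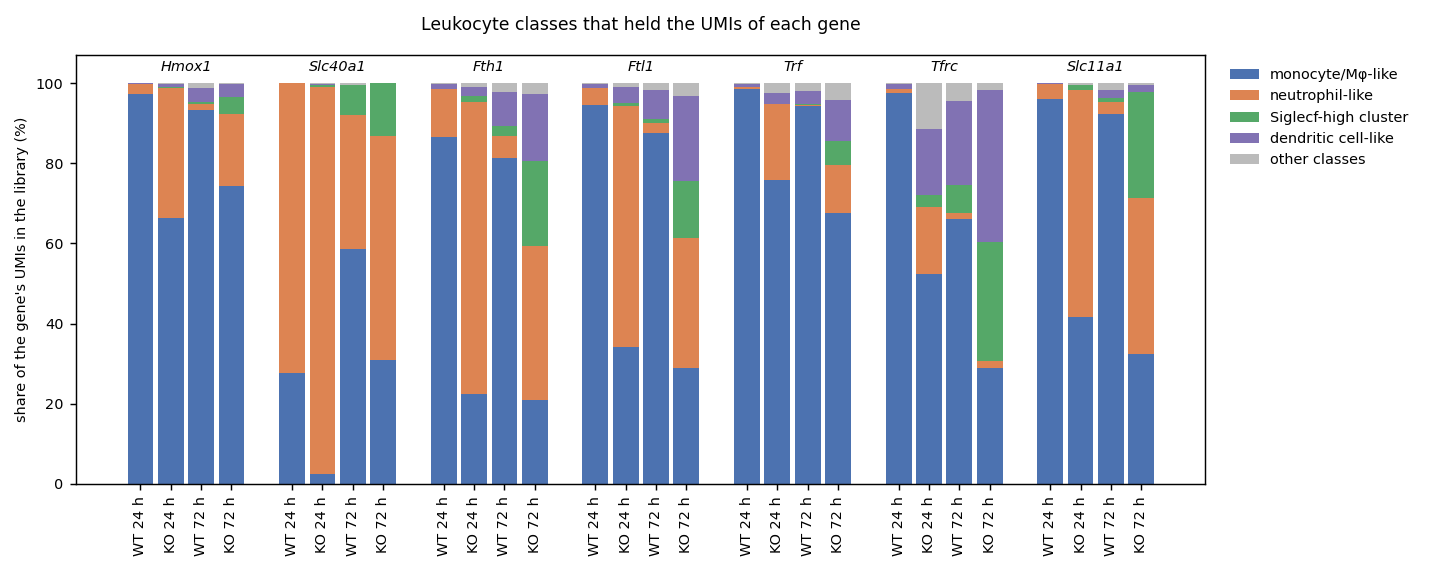
Share (%) of the UMIs of each gene in a library that came from each leukocyte class. In WT most UMIs of 6 genes came from monocyte/Mφ-like cells at both times, whereas in CCR2 KO, where these cells were 12.3% and 14.3% of the library, neutrophil-like cells gave 73.1% of Fth1 and 96.6% of Slc40a1 UMIs at 24 h.

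The cells that supplied each message changed with the make-up of the libraries. Monocyte/Mφ-like cells gave 86.5% and 81.3% of Fth1 UMIs in WT at 24 h and 72 h, but 22.3% and 21.03% in CCR2 KO, where neutrophil-like cells gave 73.1% and 38.3%. For Ftl1 the monocyte/Mφ-like share was 94.7%, 34.1%, 87.6% and 29.0%, and for Slc11a1 96.0%, 41.7%, 92.4% and 32.5%. Trf and Hmox1 came mainly from monocyte/Mφ-like cells in every library, with 67.6% as the lowest share of Trf and 66.3% as that of Hmox1. Tfrc in CCR2 KO 72 h was divided among dendritic cell-like (37.8%), Siglecf-high (29.9%) and monocyte/Mφ-like cells (28.9%).

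**Figure D4:**
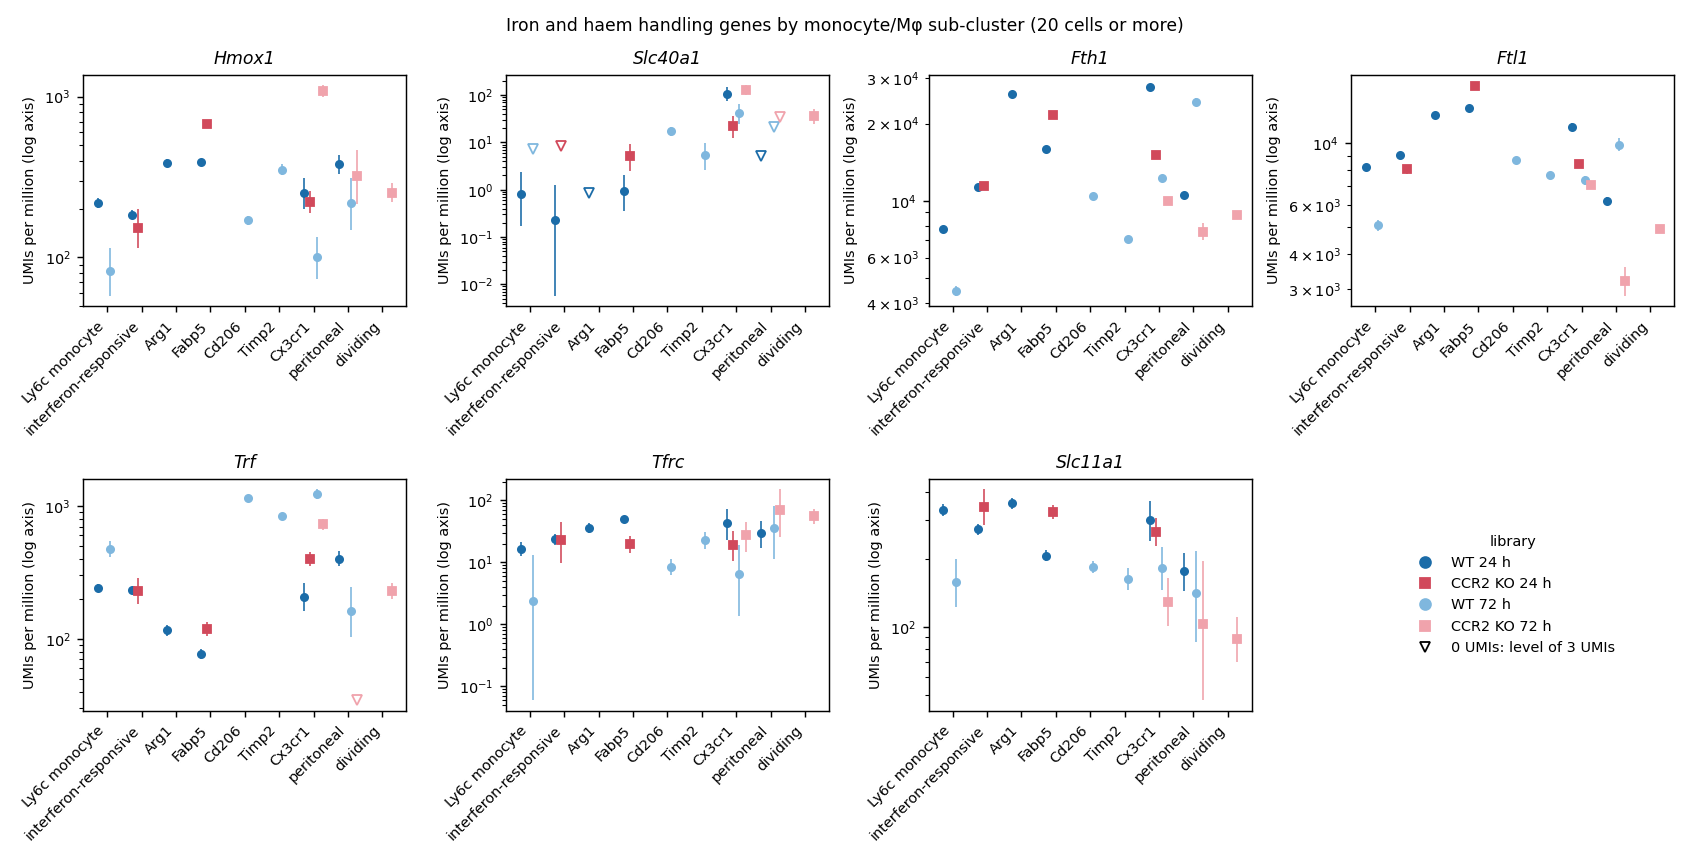
Level (CPM, log axis) of each gene in the monocyte/Mφ sub-clusters that held at least 20 cells of a library, 1 point per library with the 95% interval of the counting error as bars. Trf in WT 72 h is between 478 and 1227 CPM in all sub-clusters shown but the peritoneal one (163 CPM), and Slc40a1 is highest in the Cx3cr1 sub-cluster in each library, from 22.0 to 128 CPM.

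The sub-clusters of monocyte/Mφ-like cells, show which cells carried each gene. Those named Ly6c, Arg1, Fabp5, Cd206, Timp2 and Cx3cr1 took their markers from the study's own subsets, and the interferon-responsive, dividing and peritoneal ones from common marker genes. Only the sub-cluster marked by Cx3cr1, Cd81 and Cd72 held at least 20 cells of all 4 libraries, with 27, 48, 44 and 34 cells. The Ly6c monocyte (246), Arg1 (216), interferon-responsive (314) and Fabp5 (391) sub-clusters were filled mostly by WT 24 h, and the Cd206 (408) and Timp2 (124) sub-clusters almost entirely by WT 72 h.

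Within the Cx3cr1 sub-cluster the genes could be followed in like cells. Trf was at 207, 400, 1227 and 725 CPM, higher at 72 h in either genotype, with a log2 ratio of 2.57 (2.20 to 2.95) over time in WT, as in the whole class. CCR2 KO against WT at 72 h was -0.76 (-0.95 to -0.57) there, short of 2-fold, against -1.58 in the whole class. Fth1 was at 27699, 15052, 12268 and 9959 CPM, lower at 72 h by -1.18 in WT and by -0.60 in CCR2 KO.
Slc40a1 was at 106, 22.0, 41.5 and 128 CPM there, from 5, 6, 8 and 10 cells with a UMI, and 1 cell held 80%, 50%, 42.1% and 37.9% of them. Without that cell the levels were 22.1, 11.2, 24.6 and 87.7 CPM, so the high value of WT 24 h rested on 1 cell and CCR2 KO 72 h remained the highest. Hmox1 was at 252, 222, 100 and 1086 CPM and, without the highest cell, at 213, 185, 89.0 and 608 CPM. The median cell was at 228, 107.9, 0 and 127 CPM. The log2 ratio of CCR2 KO to WT at 72 h was 3.44 (3.0 to 3.90), and 2 cells gave 276 and 195 of the 560 UMIs behind the CCR2 KO value.

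In WT 24 h the genes set the early sub-clusters apart. Fth1 was at 26136 CPM in the Arg1 sub-cluster, 15857 in Fabp5, 11361 in interferon-responsive and 7733 in Ly6c monocyte cells. Ftl1 varied less, at 12530, 13274, 9075 and 8184 CPM, which gave 2.09 Fth1 UMIs per Ftl1 UMI in Arg1 cells and 0.945 in Ly6c monocytes. Hmox1 ran in a similar order, with 386 CPM in Arg1 and 393 in Fabp5 against 185 in interferon-responsive and 218 in Ly6c monocyte cells. In the last, 1 cell held 272 of the 800 UMIs, and the level was 145 CPM without it. Trf ran the other way, with 116 and 76.8 CPM in Arg1 and Fabp5 against 231 and 243 CPM in the others, and Slc40a1 was at most 0.948 CPM in all 4.
The Fabp5 sub-cluster also held 116 cells of CCR2 KO 24 h, but it joins a pair of clusters that the genotypes filled differently. Of the WT cells 317 lay in the one led by Ppbp and Gja1, and of the CCR2 KO cells 97 in the one led by Fabp4 and Inhba, which had 74 of WT. Over the joined sub-cluster Tfrc was at 19.8 CPM in CCR2 KO against 49.3 in WT (log2 -1.31, -1.81 to -0.85). Within the Fabp4 and Inhba cluster it was at 20.2 against 20.9 CPM (-0.05, -0.82 to 0.75), and WT cells of the Ppbp and Gja1 cluster were at 55.6 CPM, so the lower Tfrc was not seen within the cluster. Hmox1 was higher in CCR2 KO there, at 679 against 306 CPM (1.15, 0.98 to 1.33), and at 486 against 278 CPM without the highest cell of each. Fth1 was at 21704 against 21715 CPM.

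In WT 72 h Trf was high in every sub-cluster of at least 20 cells but the peritoneal one, where it was at 163 CPM. It was at 1145 CPM in the Cd206 sub-cluster, marked by Mrc1 and Trem2, 999 in the unnamed one led by Ear2 and Mgl2, 843 in Timp2 cells, 683 in the one led by Cd209a and Ccl17 and 478 in Ly6c monocytes. Hmox1 was highest in Timp2 cells (352 CPM, against 171 in Cd206 cells and 82.9 in Ly6c monocytes). Slc40a1 was at 17.1 CPM in Cd206 cells, where 1 cell held 57 UMIs, and at 41.5 in Cx3cr1 cells. Ly6c monocytes, present at both times in WT, had less Slc11a1 at 72 h (log2 -1.06), with Trf higher by 0.98. Hmox1 was lower by -1.39 (-1.93 to -0.91), but without the highest cell of each the levels were 145 and 77.0 CPM, short of 2-fold.

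**Figure D5:**
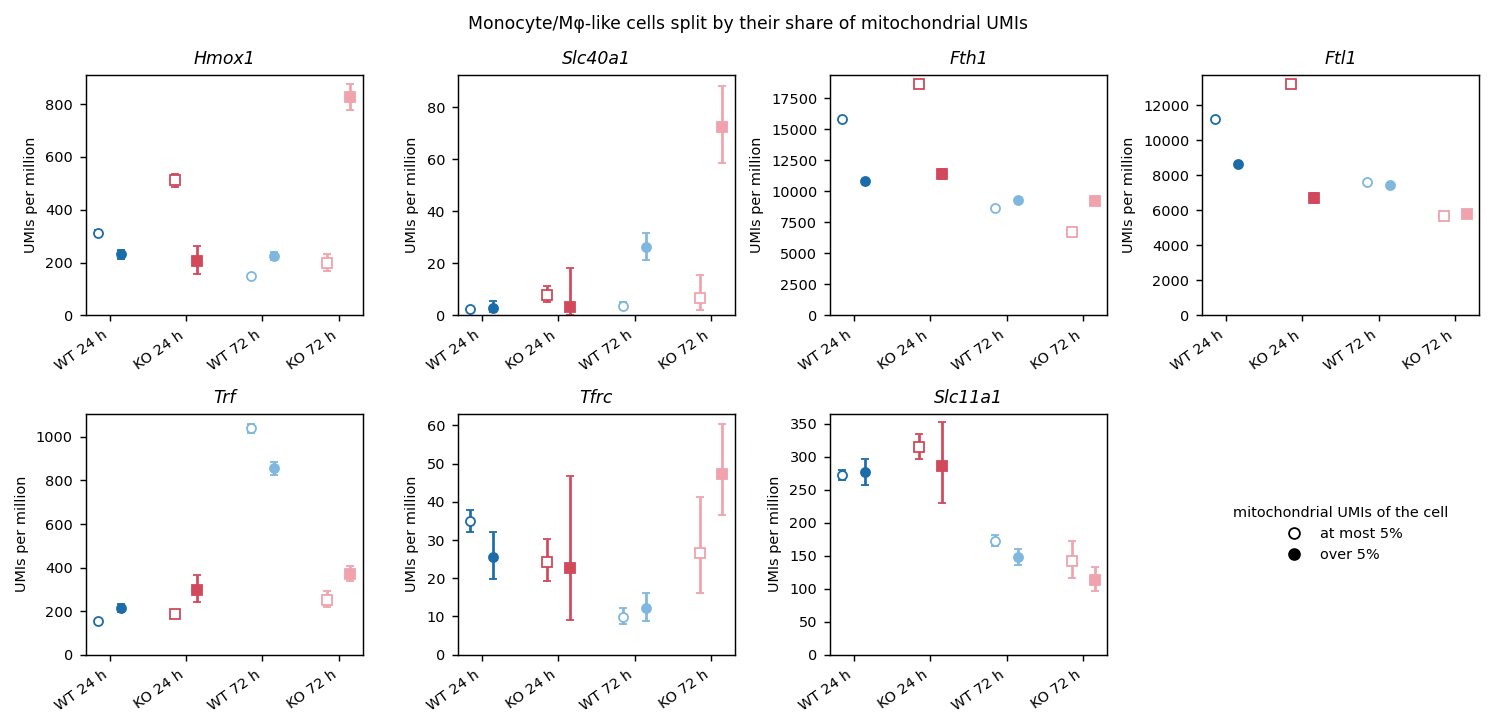
Level (CPM) of the genes in monocyte/Mφ-like cells with at most 5% and with over 5% mitochondrial UMIs, by library, with the 95% interval of the counting error as bars. In CCR2 KO 72 h Hmox1 is at 200 CPM in the former and 826 CPM in the latter, while Trf in WT 72 h is at 1039 and 856 CPM.

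The share of mitochondrial UMIs, a sign of cell quality, moved with part of these levels. Over 5% were mitochondrial in 97 of the 149 monocyte/Mφ-like cells of CCR2 KO 72 h (65.1%) and in 308 of 881 of WT 72 h (34.96%). In CCR2 KO 72 h Hmox1 was at 200 CPM below and 826 CPM above that limit, and Slc40a1 at 6.66 CPM (2.16 to 15.5, from 5 UMIs) and 72.4 CPM. In WT 72 h the pairs were 147 and 225 CPM for Hmox1 and 3.68 and 26.3 CPM for Slc40a1.
Among cells with at most 5%, the log2 ratio of CCR2 KO to WT at 72 h was 0.44 for Hmox1 and 0.86 for Slc40a1, -2.04 for Trf, and Tfrc stood at 26.6 against 9.89 CPM. Over time in CCR2 KO, Slc40a1 was then no longer higher, with a log2 ratio of -0.23, and Hmox1 was -1.36. The differences of Trf and Tfrc were thus present on either side of the limit, and that of Hmox1 passed 2-fold in the cells above it and not in those below. For Slc40a1 the 5 UMIs below the limit are too few to tell.

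The wider set of 53 genes of iron and haem metabolism, listed by role, had 48 measured members, and 30 to 32 of them met the filter in monocyte/Mφ-like cells. Past 2-fold were 1 higher and 3 lower between the genotypes at 24 h, and 1 higher and 0 lower at 72 h, with medians of -0.13 and 0.03 on the log2 scale, against 2.79% of all genes higher and 1.36% lower at 24 h and 5.71% and 2.64% at 72 h. Over time 2 were higher and 5 lower in WT, and 3 higher and 3 lower in CCR2 KO, with medians of -0.13 and 0.13, against 6.92% and 6.55% of all genes in WT and 10.5% and 4.90% in CCR2 KO. Among the genes that stayed within 2-fold in all 4 comparisons were the iron regulatory proteins Aco1 and Ireb2, the haem sensor Bach1, its counterpart Nfe2l2, the biliverdin reductases Blvra and Blvrb and the ferritin receptor of autophagy Ncoa4.

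By role, 2 of 8 genes of haem uptake, breakdown and export and 1 of 3 of iron uptake and endosomal transport were lower in CCR2 KO at 24 h, and none of either at 72 h. At 24 h the haptoglobin gene Hp was at 99.6 CPM in CCR2 KO against 442 in WT (log2 -2.15), Lcn2, which binds the iron carriers of bacteria, at 9.63 against 262 (-4.77), and Cd163, the receptor for haptoglobin with haemoglobin, at 26.4 against 77.6 (-1.55). Hp is among the leading genes of the Ly6c monocyte sub-cluster. That sub-cluster held 246 of the 1286 monocyte/Mφ-like cells of WT 24 h, 13 of the 218 of CCR2 KO 24 h and 29 of the 881 of WT 72 h. Its part in the Hp levels was not tested. Lcn2 is also a neutrophil gene. The 12 neutrophil markers summed to 1229 CPM in monocyte/Mφ-like cells of WT 24 h and 674 CPM in those of CCR2 KO 24 h, and their part was not tested. Cp, the ferroxidase that works beside ferroportin, was at 8.61, 22.6, 30.6 and 68.4 CPM, higher in CCR2 KO at both times (log2 1.39 and 1.16) and later in both genotypes (1.83 and 1.60). Cp is among the leading genes of the Lilra5 and Mmp13 cluster, whose share of the class was larger in CCR2 KO.
Over time Hfe, which meets the transferrin receptor at the cell surface, was higher in both genotypes, from 33.3 to 150 CPM in WT (2.17) and from 17.3 to 89.8 CPM in CCR2 KO (2.37). Hif1a was lower in both (-1.19 and -1.13). In WT, Fbxl5 (-1.09), which marks iron regulatory protein 2 for breakdown, and the transporter Slc39a14 (-1.72) were lower as well, with Hp at 96.6 CPM at 72 h (-2.19) and Lcn2 at 1.59 CPM (-7.37). In CCR2 KO, Cd163 was higher (67.0 CPM, 1.34), and lower were the first enzyme of haem synthesis, Alas1 (-1.23), and the endosomal transporter Slc11a2 (-1.11).

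Across 25 sums of a class and a library with at least 20 cells, the genes most like each of the 7 were found by Pearson's correlation of log2(CPM + 10) over 4008 genes. Sums of 1 library share its depth and handling, so the values are a description. Slc11a1 was most like C5ar1 (r = 0.99), Fcgr4 (0.97) and Fam20c (0.96), and Hmox1 most like BC005537 (0.93), F10 (0.93) and Fam20c (0.92). Fth1 ran with Igsf6, Tlr13 and Gabarap (0.97 each) and Ftl1 with Bri3 (0.97), Lamp2 (0.96) and Fth1 itself (0.96). Slc40a1 was nearest to the neutrophil genes Rhog (0.95), Trem3 (0.94) and Il1f9 (0.94), while Trf was nearest to the Mφ genes Trem2, Apobec1 and C1qa (0.84 each), and the 2 hardly ran together (0.09). Tfrc was nearest to Xpo1 (0.82), Snrpc (0.80) and Eloc (0.80).

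No haemoglobin or other erythroid gene of the list of 6 was measured in these tables, so the presence of red cell RNA could not be assessed. The markers of fibroblasts summed to 1.29 to 9.51 CPM and those of smooth muscle to 10.5 to 72.2 CPM in monocyte/Mφ-like cells.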

How the data were processed

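The deposited values are raw UMI counts per gene and cell, without normalization. Per the labels, the authors prepared libraries with the 10x v3 3′ kit, aligned reads to GRCm38/mm10 and counted UMIs with Cell Ranger 3.0.2. Cells had to show 200 genes and could hold up to 10% mitochondrial UMIs, and each library pooled several mice. The annotation they counted on is not given in the sources used here, and 16133 of the 16308 symbols were found in GENCODE M21, which gave the coordinates.

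Cells were clustered together with scanpy 1.11.5 and leidenalg 0.10.2 (Python 3.11.15), from 2000 variable genes without the iron and haem lists and Ccr2, 30 principal components, 20 neighbours and a resolution of 1. The 20 clusters and 13 monocyte/Mφ sub-clusters were named from fixed markers, and those with mixed leading genes were left unnamed. UMIs were summed over the cells of a class and library and scaled to CPM. With 1 library per group there is no test. Sums carry exact Poisson intervals and ratios exact conditional binomial intervals, at 95%, and shares exact binomial (Clopper-Pearson) intervals, beside which a share of 0 is given a limit of 3 cells of the total. PCR and pooling are not covered by them. Past 2-fold means at least 2-fold with at least 20 CPM in 1 library and 30 UMIs over both, with sums of 0 to 2 UMIs set to 3. Groups with fewer than 20 cells gave no value in sub-clusters. The calculation was checked on simulated Poisson counts, which have the spread that the intervals assume. UMIs that gather in single cells, as those of Hmox1 and Slc40a1 did, were not covered by that check.

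The 7 genes were all described, and genes of the wider lists were named where they passed 2-fold with an interval on 1 side of 1, apart from the few named as examples of genes that did not. The genes, lists and markers were chosen with earlier results of these data known. Doublets were not removed, since Scrublet called only 7, 1, 1 and 0 cells and so had not worked. Alternatives were other scalings (edgeR 4.0.16 and DESeq2 1.42.0 in R 4.3.3), classes, cell filters and thinning.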

Additional observations from a re-analysis of the deposited data

Results flagged for a closer look

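With 1 library per group no sample can stand apart from its replicates, and the values here are log2 ratios that pointed in opposite directions in the 2 settings of the same contrast, with counting intervals on either side of 0. The difference was not tested in any of them, since each setting is 1 pair of libraries. In monocyte/Mφ-like cells the ratio of 72 h to 24 h was -0.81 in WT and 0.31 in CCR2 KO for Hmox1, and -1.67 and 0.72 for Tfrc. Without the cells of at least 4000 CPM of Hmox1, the Hmox1 ratios were -0.97 and -1.09 and no longer opposite. The ratio of CCR2 KO to WT was, at 24 h and then at 72 h, 0.25 and -0.09 for Fth1, 0.23 and -0.40 for Ftl1, 0.26 and -1.58 for Trf, -0.47 and 1.92 for Tfrc and 0.20 and -0.41 for Slc11a1. For Hmox1, Fth1, Ftl1 and Slc11a1 both values were within 2-fold. In neutrophil-like cells Hmox1 went by -0.69 in WT and 0.39 in CCR2 KO over time. The CCR2 KO value turned to -0.14 without the cells of at least 4000 CPM of Hmox1. Slc40a1 went by 0.80 and -0.66 over time, with 0.58 and -0.88 between the genotypes at 24 h and 72 h. In dendritic cell-like cells Ftl1 stood at 0.46 and -0.28 between the genotypes at the 2 times.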

How the results depend on the processing

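Of the alternatives in monocyte/Mφ-like cells, the limit of 5% mitochondrial UMIs changed most. It left 1 gene higher between the genotypes at 72 h, 2 lower over time in WT and 0 higher over time in CCR2 KO, where it turned Slc40a1 to a log2 ratio of -0.23. Between the genotypes at 24 h, 1 gene was higher with cells thinned to 1000 UMIs or with no filter on low values, and over time in WT 2 were higher with no filter. Over time in CCR2 KO, 2 were higher at a Leiden resolution of 2, with each library clustered on its own, with cells gated one by one or without the dividing and peritoneal sub-clusters, and 1 was lower when clustering each library separately. The other 105 counts of genes stayed within 1.5 times. The cause was not tested.

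At 72 h the log2 ratio of CCR2 KO to WT ranged from 0.27, without the cells of at least 4000 CPM of Hmox1, to 2.38 for Hmox1, from 0.86 to 3.15 for Slc40a1, from -2.04 to -1.22 for Trf and from 1.21 to 2.21 for Tfrc. Leaving out those cells, the cell richest in a gene, or the dividing and peritoneal sub-clusters was chosen after seeing the data. In neutrophil-like cells Hmox1 at 72 h ranged from 0.33 to 1.32 and Trf at 24 h from 0.30 to 1.31. Some differences in monocyte/Mφ-like cells that stayed within 2-fold turned their direction: over time in CCR2 KO, Hmox1 (0.31) came to -1.36 at the 5% limit and Trf (0.74) to -0.31 when every library was clustered separately, and with cells thinned Tfrc came to -0.49 over time in CCR2 KO and to 1.03 between the genotypes at 24 h. TMM factors shifted all genes by 0.15 in WT 24 h and -0.19 in CCR2 KO 72 h. Clustering WT 24 h on its own named no monocyte/Mφ-like cells, so comparisons with it have no value there. Leaving out cells with haemoglobin UMIs was not run, as no such gene was measured. No paired analysis was possible because each group is 1 library.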
